A study of Mus musculus with 4 samples.

Results

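Desmosome genes were followed in cells from mouse mammary tumours that carry PyMT, the polyoma middle T oncogene. The set was chosen by name: 10 genes of 50679 in the deposited table, namely the cadherins Dsg2, Dsg3, Dsc2 and Dsc3, the plaque proteins Jup, Pkp1, Pkp2, Pkp3 and Dsp, and the membrane protein Perp. All 10 were found, each under a single Ensembl identifier. Cells with PCNA 211F (n = 2, libraries 211F 1 and 211F 2) were set against cells with PCNA WT (n = 2, WT 1 and WT 2). PCNA is the replication clamp, and the column headers of the deposited table write the 211F form as Y211F. Both genotypes share the PyMT oncogene and an age of 10 weeks. By the protocols, tumours were dissociated, epithelial cells were taken with an EpCAM antibody, and cells were plated in DMEM/F-12 with 10% serum. The plating density was given as 100000 for every library. The labels call the cells luminal epithelial adenocarcinoma, and they give neither the strain, the promoter that drives PyMT, nor which animal each library came from. The p-values therefore measure the spread between these libraries, which may in part be technical.

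A desmosome is a spot weld between neighbouring epithelial cells. Desmogleins and desmocollins, which are cadherins, meet outside the cell. Inside, plakoglobin (Jup) and the plakophilins (Pkp) gather their tails into a plaque, and desmoplakin (Dsp) ties that plaque to keratin filaments. Mammary epithelium builds desmosomes both between luminal cells and between basal cells, and their loss is a known part of the change from epithelial to mesenchymal state.

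The library labelled WT 2 went against its epithelial label. Epcam, the capture antigen, had 77.3 FPKM in 211F 1 and 449.6 in 211F 2, while WT 1 had 444 and WT 2 had 0.893. FPKM counts fragments for each kilobase of a transcript relative to the library's total, so levels of different genes can be compared per length. The summed level of 13 mesenchymal markers was 5052 FPKM in 211F 1 and 38.7 in 211F 2, compared with 341 for WT 1 and 4887 for WT 2. All 13 of these markers were at least 1 log2 unit higher in WT 2 than in WT 1, and 11 of 13 were so in 211F 1 over 211F 2. Of the 12767 genes that averaged 1 FPKM or more, 1549 and 1318 were so. The sums of 211F 1 and WT 2 were made up differently. Vim (vimentin) had 1856 FPKM in 211F 1 and 1634 in WT 2, and Fn1 (fibronectin) had 1851 and 622 FPKM in 211F 1 and WT 2, whereas the collagen gene Col1a1 had 2.70 FPKM in 211F 1 and 437 in WT 2. Of the leukocyte markers reported here Csf1r was the highest, at most 1.39 FPKM, and Ptprc, Cd3e, Adgre1 and Itgam were at most 0.0703 FPKM in any library. The 4 endothelial markers summed to between 0.202 and 1.92 FPKM. The part of the mesenchymal transcripts in the desmosome values was not tested, and in bulk RNA fewer epithelial cells cannot be told apart from less RNA per cell. The low values of long genes fell on whole steps, and a step of 1 fragment put the depth relative to WT 1 at 1.09 in 211F 1, 0.935 in 211F 2 and 1.72 in WT 2, provided that the authors did not rescale the libraries.

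The summed level of the desmosome genes was high in 3 libraries and low in WT 2. Not every gene followed it, since Dsc3 was near 0 in every library and Pkp2 in WT 2 was at 79.3% of WT 1. The sum was 672 FPKM in 211F 1 and 1049 in 211F 2, while WT 1 had 1293 and WT 2 had 32.7. In WT 2, Jup and Pkp2 made up 92.6% of that sum, while their share was between 31.2% and 37.5% in the other libraries. Without those 2 genes the sum in WT 2 was 0.272% of that in WT 1. In 211F 1 the same 8 genes stood at 47.2% of WT 1.

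**Figure D1:**
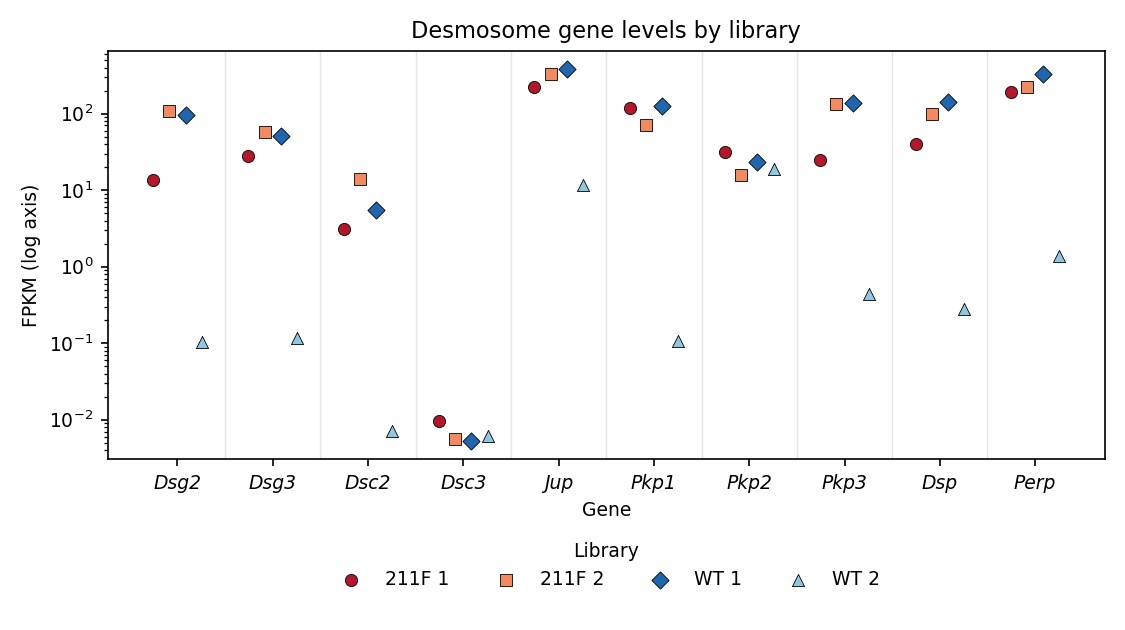
Level of each desmosome gene in FPKM (log axis) in the 211F 1, 211F 2, WT 1 and WT 2 libraries, 1 point per library. WT 2 is the lowest for 8 of the 9 genes that reached a mean of 1 FPKM, Pkp2 lies between 15.6 and 31.7 FPKM, and Dsc3 is near 0 throughout.

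No desmosome gene passed the test between the genotypes. Differences are 211F minus WT on log2(FPKM + 1), a scale that understates the change of low genes, and they were tested with limma over the 12767 genes that averaged 1 FPKM or more, 9 of the 10 desmosome genes among them. limma called 0 of the 9 higher and 0 lower at an adjusted p under 0.05, where it called 0.0% of all tested genes in either direction. At an unadjusted p under 0.05 there were 0 of the 9 and 241 of all genes (1.89%). The smallest unadjusted limma p among the desmosome genes was 0.251, for Dsc2, and the exact permutation p for groups of 2 and 2 is at least 0.3333. All 9 differences were positive, against 53.1% of all tested genes, with a median of 2.06 against 0.03. That direction rested on WT 2. Without that library only Dsc2 was positive. With 211F 2 set against WT 1 alone, a pair chosen after the values were seen, only Dsg2, Dsg3 and Dsc2 were, as were 7050 of the 12767 tested genes. Some of these signs rest on small values, such as -0.08 for Pkp2 without WT 2 and -0.04 for Pkp3 in that pair. The genotypes overlapped in all 9 genes, whereas the groups lay apart in 26.8% of all tested genes. In all 9 the gap between both WT libraries was larger than the genotype difference. That must hold wherever both 211F values lie between the WT values, and its share over all tested genes was not computed.

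**Figure D2:**
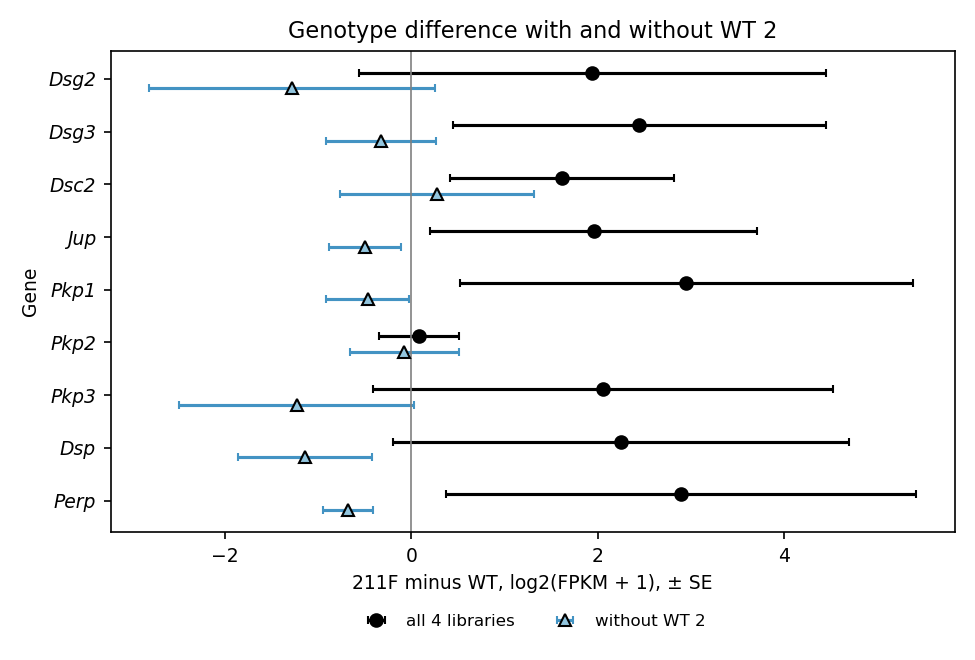
Difference 211F minus WT (log2(FPKM + 1), horizontal axis) for the 9 tested desmosome genes, with its SE, from all 4 libraries (circles) and without WT 2 (triangles). Every circle is above 0, and 8 of the 9 triangles are below it.

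Jup encodes plakoglobin, the plaque protein that binds cadherin tails in desmosomes and also in adherens junctions. It was the most abundant of the set in every library but WT 2, with 220.3 FPKM in 211F 1 and 325.6 in 211F 2, compared with 379.5 for WT 1 and 11.6 for WT 2. It stood higher than 97.1% of tested genes in 211F 1 and 98.3% in 211F 2, and higher than 98.6% in WT 1 and 43.5% in WT 2. The level in WT 2 was 3.06% of that in WT 1, a larger remainder than any desmosome gene but Pkp2 among those tested. The genotype difference was 1.96 ± 1.76 (SE; limma adjusted p = 0.9999), and -0.50 without WT 2. Jup lies on GRCm38 chromosome 11, 100368958 to 100397763, minus strand.

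Dsp encodes desmoplakin, the plakin that anchors keratins to the plaque. It stood at 39.9 FPKM in 211F 1 and 99.6 in 211F 2, compared with 140.7 for WT 1 and 0.276 for WT 2. WT 2 was far below the rest, and both 211F values lay between those of the WT libraries. On the linear scale the means were nearly equal, 69.8 ± 42.2 FPKM in 211F and 70.5 ± 99.3 in WT (SD, n = 2 each). On the log2 scale, where the low library weighs more, the difference was 2.26 ± 2.45 (SE; limma adjusted p = 0.9999), and -1.14 without WT 2. Dsp lies on chromosome 13, 38151294 to 38198577, plus strand, and 499 bases of its exons overlap the uncharacterised gene Gm10129 on the other strand, which had at most 0.371 FPKM.

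RefSeq promoters, from 250 bases before to 50 after the start, were at hand for 2 of the 10 genes, and they are shown because Snail and ZEB factors, repressors of epithelial genes, bind the E-box CAGGTG. Capitals mark CAGGTG on either strand. They come from GRCm38.p6, at chr13:38151044-38151343 on the plus strand for Dsp and at chr11:100397741-100398040 on the minus strand for Jup, and are written 5′ to 3′.
Dsp: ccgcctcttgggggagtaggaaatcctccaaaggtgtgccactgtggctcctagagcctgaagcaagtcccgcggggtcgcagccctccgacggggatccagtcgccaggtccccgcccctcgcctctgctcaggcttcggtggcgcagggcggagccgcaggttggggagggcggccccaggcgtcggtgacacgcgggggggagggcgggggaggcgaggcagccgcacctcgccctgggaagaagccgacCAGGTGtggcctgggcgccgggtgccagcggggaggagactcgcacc
Jup: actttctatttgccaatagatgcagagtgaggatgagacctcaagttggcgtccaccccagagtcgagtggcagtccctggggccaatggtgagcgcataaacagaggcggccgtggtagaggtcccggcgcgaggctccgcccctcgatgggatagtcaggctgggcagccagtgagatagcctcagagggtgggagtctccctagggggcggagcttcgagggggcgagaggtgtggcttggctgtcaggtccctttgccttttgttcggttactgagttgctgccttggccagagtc
The Dsp window held 1 CAGGTG, from position 4 after the start counting the first transcribed base as 1, and the Jup window held none. Of 32851 RefSeq promoter windows of this length, 20.2% held it, so its presence in Dsp is a description only. The Grainyhead-like motifs AACCGGTT and AACCNGTT (the second covers the first) and the TATA motif TATAAA were in neither window, and they were in 0.146%, 2.09% and 13.6% of all windows.

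The plakophilins, armadillo proteins that cross-link the plaque, parted ways in WT 2. Pkp3, found in most epithelia, had 24.8 FPKM in 211F 1 and 133 in 211F 2, while WT 1 had 137 and WT 2 had 0.445. Pkp1, the plakophilin of stratified epithelia, had 117 FPKM in 211F 1 and 70.4 in 211F 2, compared with 126 for WT 1 and 0.108 for WT 2. Pkp2, typical of simple epithelia and heart muscle and known also from contacts of some mesenchymal cells, had 31.7 FPKM in 211F 1 and 15.6 in 211F 2, while WT 1 had 23.6 and WT 2 had 18.7. It spanned 15.6 to 31.7 FPKM, with both WT values between those of the 211F libraries, and its level in WT 2 was 79.3% of that in WT 1, against 0.325% for Pkp3 and 0.0854% for Pkp1. Pkp2 was the only one of the 9 tested genes for which WT 2 was not the lowest library, and over all tested genes WT 2 was lowest in 29.0%.

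The make-up of the plakophilin pool also differed between libraries. The sum was 174 FPKM in 211F 1 and 219 in 211F 2, compared with 287 for WT 1 and 19.3 for WT 2. Pkp1 was 67.5% of it in 211F 1 and 32.1% in 211F 2, while WT 1 had 44.0% and WT 2 had 0.560%. Pkp3 was 14.3% in 211F 1 and 60.8% in 211F 2, compared with 47.8% for WT 1 and 2.31% for WT 2. Pkp2 was 97.1% of the pool in WT 2 and between 7.14% and 18.2% elsewhere. The 211F libraries thus differed from each other in which plakophilin led, Pkp1 in 211F 1 and Pkp3 in 211F 2. The genotype differences were 2.95 ± 2.44 for Pkp1, 0.08 ± 0.43 for Pkp2 and 2.06 ± 2.47 for Pkp3 (SE; limma adjusted p = 0.9999 for each). Without WT 2 they were -0.47, -0.08 and -1.23. Pkp1 lies on chromosome 1 (135871395 to 135919207, minus strand), Pkp2 on chromosome 16 (16213318 to 16272712, plus) and Pkp3 on chromosome 7 (141078218 to 141090510, plus).

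**Figure D3:**
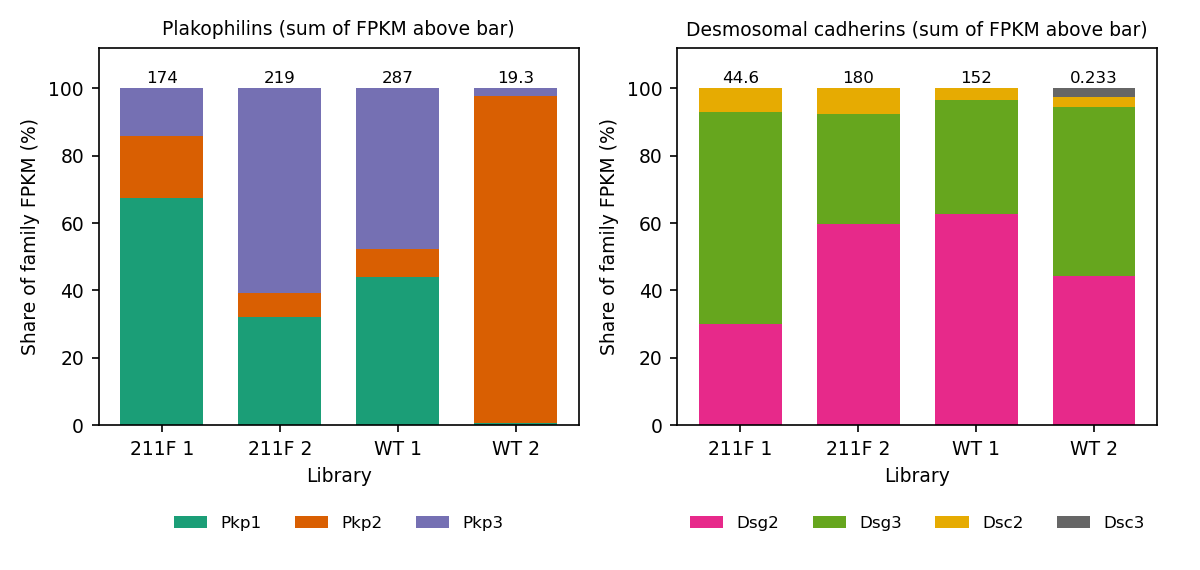
Share of each gene in the summed FPKM of the 3 plakophilins (left) and the 4 desmosomal cadherins (right) in each library, with the sum in FPKM above the bar. Pkp2 fills 97.1% of the plakophilin bar of WT 2, and 211F 1 differs from 211F 2 and WT 1 in having Pkp1 and Dsg3 as the largest shares.

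Perp, a small membrane protein of desmosomes and a target of p53 and p63, was second to Jup in 211F 1, 211F 2 and WT 1. It had 193 FPKM in 211F 1 and 224 in 211F 2, while WT 1 had 334 and WT 2 had 1.36. The 211F libraries were close to each other, at 209 ± 21.9 FPKM (mean ± SD, n = 2), and both lay below WT 1. The genotype difference was 2.90 ± 2.53 (SE; limma adjusted p = 0.9999), and -0.68 without WT 2. Perp lies on chromosome 10, 18845020 to 18857073, plus strand.

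Desmogleins were the main desmosomal cadherins, and the ratio of the pair in 211F 1 was unlike that in 211F 2 and WT 1. Dsg2, the desmoglein of simple epithelia, had 13.5 FPKM in 211F 1 and 107.8 in 211F 2, compared with 95.6 for WT 1 and 0.103 for WT 2. Dsg3, the desmoglein of the basal layers of stratified epithelia, had 28.1 FPKM in 211F 1 and 58.4 in 211F 2, while WT 1 had 51.1 and WT 2 had 0.116. Dsg2 stood above Dsg3 by 1.85 times in 211F 2 and 1.87 times in WT 1, while in 211F 1 the ratio was 0.480. The libraries 211F 2 and WT 1 were alike in both genes, and WT 2 was near 0 in both. The genotype differences were 1.94 ± 2.51 for Dsg2 and 2.45 ± 2.00 for Dsg3 (SE; limma adjusted p = 0.9999 for each), and without WT 2 they were -1.28 and -0.33. Exons of Dsg2 share 330 bases with the antisense gene Gm16090, which had 0.9001 FPKM in 211F 1 and 6.42 in 211F 2, compared with 5.39 for WT 1 and 0 for WT 2, and the sources used here do not say whether strand was used in counting.

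Desmocollins pair with desmogleins, and Dsc2 and Dsc3 were lower than Dsg2 and Dsg3 in every library. Dsc2, the broadly expressed desmocollin, had 3.12 FPKM in 211F 1 and 13.9 in 211F 2, while WT 1 had 5.47 and WT 2 had 0.00707, which equals about 2.25 fragments. Of the set it had the highest level in 211F 2 relative to WT 1, at 2.54 times, and it was the only tested desmosome gene at least 1 log2 unit apart between those libraries (4.07% of all genes were at least 1 unit higher there, and 0 of the 9 were at least 1 unit lower, against 6.31% of all genes). Its genotype difference was 1.62 ± 1.21 (SE; limma adjusted p = 0.9999), and 0.28 without WT 2. Dsc3, the desmocollin of basal layers of stratified epithelia, had 0.00969 FPKM in 211F 1 and 0.00562 in 211F 2, compared with 0.00529 for WT 1 and 0.00613 for WT 2. By the step size and its exon length these values equal about 2.00, 0.992, 1.00 and 1.99 fragments in that order, so Dsc3 was at or under the level of 3 fragments in every library and no fold is given.

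The cadherin genes stand side by side on chromosome 18 of GRCm38, between 19960930 and 20604521. Within a library their levels differed along the cluster. In order along the chromosome they are Dsc3, Dsc2, Dsc1, Dsg1c, Dsg1a, Dsg1b, Dsg4, Dsg3 and Dsg2. Dsc3 and Dsc1, on either side of Dsc2, reached at most 0.00969 and 0.257 FPKM. Of the desmoglein-1 copies Dsg1b was the highest, with 0.684 FPKM in 211F 1 and 4.67 in 211F 2, while WT 1 had 1.85 and WT 2 had 0.00416. Dsg1a, Dsg1b and Dsg1c are close paralogs, so reads may be split among them. Dsg4, the desmoglein of hair, was at or below 0.0378 FPKM. Expression was thus concentrated in Dsg3 and Dsg2 at the end of the cluster and in Dsc2. Across libraries, Dsc2, Dsg1a, Dsg1b, Dsg3 and Dsg2 shared an order: 211F 2 highest, then WT 1, 211F 1 and WT 2. Dsg1a had 0.383 FPKM in 211F 1 and 1.32 in 211F 2, compared with 1.10 for WT 1 and 0 for WT 2. Dsc1 and Dsg1c were instead highest in WT 1, at 0.257 and 0.424 FPKM. In WT 2, 7 of these 9 genes were below 0.1 FPKM. Dsg3 (20510274 to 20547459) and Dsg2 (20558074 to 20604521) are on the plus strand, and Dsc2 (20030633 to 20059554) and Dsc3 (19960930 to 20002351) on the minus strand.

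Set against Cdh1 (E-cadherin, the cadherin of adherens junctions), 5 desmosome genes stood in a like proportion in WT 2. Cdh1 had 101.6 FPKM in 211F 1 and 202 in 211F 2, compared with 257 for WT 1 and 0.533 for WT 2. Dsc2 is left out of this comparison, since its level in WT 2 was under that of 3 fragments. Per unit of Cdh1, 5 of the other 8 tested genes were within 2-fold between WT 2 and WT 1: Dsp, Pkp3, Dsg2, Dsg3 and Perp. Dsp per Cdh1 was 0.517 in WT 2 and 0.547 in WT 1, and Dsg3 per Cdh1 was 0.218 in WT 2 and 0.198 in WT 1. The others lay nearer the limit, with Dsg2 at 0.523, Pkp3 at 1.57 and Perp at 1.97 times WT 1. The share of all genes within 2-fold was not computed. Outside the set, Epcam in WT 2 was at 0.201% of WT 1, close to the 0.207% of Cdh1, while Cdh3 was at 53.3%. Pkp1 per Cdh1 was lower in WT 2 (0.413 times WT 1), Jup 14.8 times higher and Pkp2 383 times higher. Between 211F 1 and 211F 2, Dsp, Jup, Dsg3 and Perp were within 2-fold per Cdh1. There Pkp1 was 3.32 times and Pkp2 4.04 times higher in 211F 1, and Dsg2 was at 0.249, Pkp3 at 0.371 and Dsc2 at 0.446 times 211F 2. Each of these ratios rests on 1 library a side and carries no test.

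In WT 2 against WT 1, 8 of the 9 tested genes were lower by at least 1 log2 unit, where 12.3% of all genes were, and 7 of 9 by at least 4 units, where 1.57% were. In 211F 1 against 211F 2, 5 of 9 were lower by at least 1 unit (8.73% of all genes): Dsg2, Pkp3, Dsc2, Dsp and Dsg3. Pkp1 and Pkp2 went the other way there, by 0.73 and 0.97. Epcam and Cdh1 were also lower in WT 2 than in WT 1 and in 211F 1 than in 211F 2. Other epithelial lists differed from each other in 211F 1. Of 10 epithelial transcription and splicing factors, 9 were lower by at least 1 unit in WT 2 and 8 in 211F 1. By at least 1 unit, 7 of 9 adherens junction genes were lower in WT 2 and 2 of 9 in 211F 1. All 11 keratins were lower in WT 2, while in 211F 1, 2 were lower and 3 higher (1318 of 12767 tested genes were higher there). The part of the epithelial state in these gaps was not tested.

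**Figure D4:**
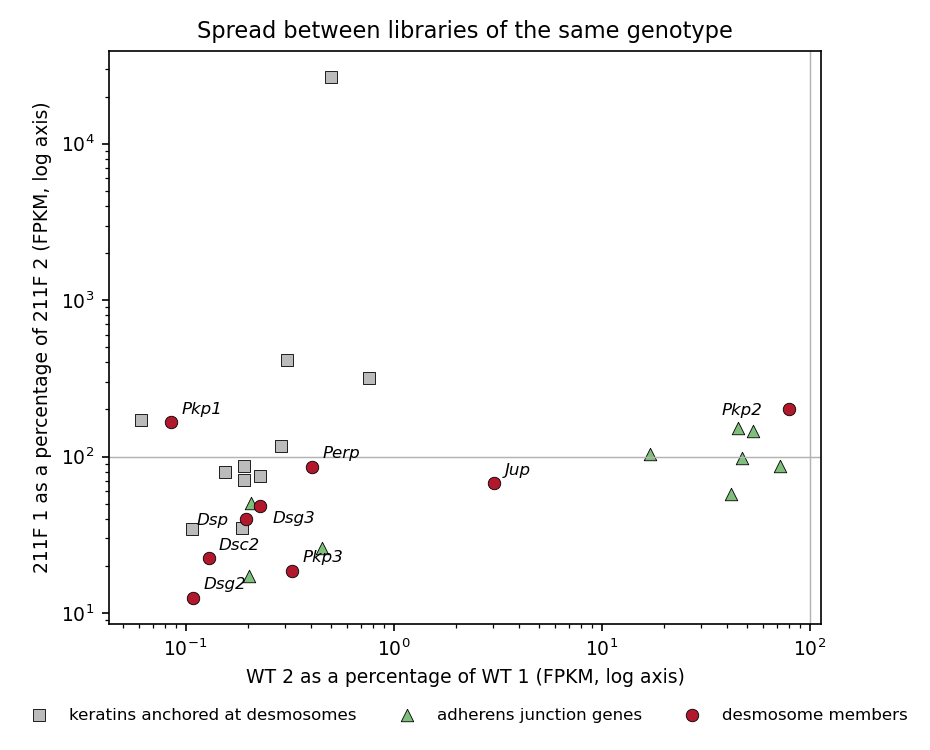
Level in WT 2 as a percentage of WT 1 (horizontal log axis) against the level in 211F 1 as a percentage of 211F 2 (vertical log axis) for desmosome genes, keratins and adherens junction genes that averaged 1 FPKM or more. Of the desmosome genes, 7 lie between 0.0854% and 0.407% on the horizontal axis, with Jup at 3.06% and Pkp2 at 79.3%.

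Among other plakins and desmosomal genes, 5 of 9 reached the expression filter, 4 of them with a positive difference, and 0 were called higher or lower by limma. Without WT 2, 2 of the 5 were positive. Evpl (envoplakin), a plakin of the cornified envelope, had 5.95 FPKM in 211F 1 and 51.0 in 211F 2, while WT 1 had 19.5 and WT 2 had 0.0708. Ppl (periplakin), its partner, had 8.93 and 37.3 FPKM in 211F 1 and 211F 2, compared with 26.5 for WT 1 and 0.0926 for WT 2. Both were lowest in WT 2 and highest in 211F 2. Pkp4, a related armadillo protein that is found mainly at adherens junctions, ranged from 76.0 FPKM in WT 2 to 117 in WT 1, and its WT 2 level was 64.8% of WT 1. Cdsn, a protein of cornified desmosomes, had 4.66 FPKM in 211F 1 and 1.18 in 211F 2, while WT 1 had 0.382 and WT 2 had 7.75.

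Keratins, the filaments that desmoplakin holds, had 9 of 11 positive differences with 0 called, a median of 3.20, and 3 genes whose groups did not overlap (Krt8, Krt14 and Krt16, all higher in 211F, where 15.2% of all tested genes lay). Without WT 2, 4 of 11 were positive. In WT 2 every one of the 11 was at 0.0614% to 0.760% of WT 1, the range in which 7 desmosome genes also fell. In 211F 1 the keratin sum was 3711 FPKM, near the 3787 of 211F 2 and 3385 of WT 1, while the desmosome sum was lower than in both. That nearness rested in part on Krt5, a basal keratin. Krt5 made up 1029 FPKM of the sum in 211F 1 and 3.84 in 211F 2, while WT 1 had 245 and WT 2 had 1.23. By at least 1 log2 unit, 2 of 11 keratins were lower in 211F 1 than in 211F 2 and 3 were higher. The lower ones were Krt6a and Krt7, at 34.2% and 34.7% of 211F 2, and Krt14, the largest of the list, was at 75.3%. Of 12767 tested genes, 1115 were lower and 1318 higher by that much. Against Krt8, a luminal keratin, the desmosome genes differed in direction between the 211F libraries. Dsp per Krt8 was 0.0791 in 211F 1 and 0.171 in 211F 2, while WT 1 had 0.325 and WT 2 had 0.3327. Perp per Krt8 was 0.383 in 211F 1 and 0.386 in 211F 2, and Pkp1 per Krt8 was 0.232 in 211F 1 and 0.121 in 211F 2.

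Adherens junction genes had 8 of 9 positive differences with 0 called and a median of 0.40, and 1 of 9 was positive without WT 2. Within the list the levels in WT 2 were uneven, also between members of 1 family. Cdh1 and Nectin4, an epithelial adhesion receptor, were at 0.207% and 0.455% of WT 1, while Cdh3 (P-cadherin) was at 53.3% and Nectin1 at 17.1%. The catenins Ctnna1, Ctnnb1 and Ctnnd1 were at 47.3%, 42.1% and 45.5% of WT 1. Ctnnb1 (beta-catenin), the closest relative of plakoglobin, had 240.1 FPKM in 211F 1 and 416 in 211F 2, compared with 469 for WT 1 and 197 for WT 2. In every library it was above Jup, by the smallest margin in 211F 1 (240.1 and 220.3 FPKM).

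Epithelial transcription and splicing factors had 10 of 10 positive differences with 0 called and a median of 1.16, and without WT 2 only 2 of 10 were positive. The count was 8 with a pseudocount of 5 or under quantile normalization, and 6 without 211F 2. Elf3 was near 0, at 0.001 ± 1.52 (SE). Klf5 fell least in WT 2, to 54.8% of WT 1. Grhl2, a Grainyhead-like factor of epithelial junction genes, had 9.17 FPKM in 211F 1 and 42.0 in 211F 2, while WT 1 had 48.4 and WT 2 had 0.109. Trp63 (p63), the basal factor that activates Perp, had 11.5 FPKM in 211F 1 and 42.2 in 211F 2, compared with 89.6 for WT 1 and 0.329 for WT 2. Perp did not track it closely in 211F 1, where Trp63 was at 27.2% and Perp at 86.2% of 211F 2. Esrp1, an epithelial splicing regulator, had 17.4 FPKM in 211F 1 and 102.4 in 211F 2, while WT 1 had 110.02 and WT 2 had 0.262.

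The EMT repressors had 0 of 6 positive differences with 0 called and a median of -0.21, and their sign turned for 1 with a pseudocount of 0.1, for 2 under quantile normalization and for 5 without WT 2 or without 211F 2. Zeb1, which represses epithelial junction genes, had 41.6 FPKM in 211F 1 and 0.996 in 211F 2, compared with 0.657 for WT 1 and 52.3 for WT 2. Zeb2 had 25.3 and 1.48 FPKM in 211F 1 and 211F 2, while WT 1 had 1.71 and WT 2 had 26.1. Snai2 (Slug) spanned a narrower range, from 17.2 FPKM in 211F 2 to 31.1 in WT 1. High Zeb1 and Zeb2 therefore went with a desmosome sum of 672 FPKM in 211F 1 and of 32.7 FPKM in WT 2, with 1 library each.

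Genes that act on desmosome assembly and turnover spanned a narrower range than the desmosome genes. Of 9, 6 differences were positive, 0 were called, and the median was 0.22. Adam10, a protease that sheds desmoglein ectodomains, had 54.4 FPKM in 211F 1 and 154.9 in 211F 2, compared with 87.8 for WT 1 and 61.2 for WT 2. Prkca, the protein kinase C whose activity loosens desmosomes, had 65.1 FPKM in 211F 1 and 36.9 in 211F 2, while WT 1 had 19.3 and WT 2 had 48.6. Atp2a2, the calcium pump that desmosome assembly in keratinocytes needs, had 159.9 and 140.5 FPKM in 211F 1 and 211F 2, compared with 101.3 for WT 1 and 112.5 for WT 2. Its groups did not overlap (15.2% of all tested genes lay apart with 211F higher), and its difference was 0.49 ± 0.21 (SE; limma adjusted p = 0.9999). Flot2, a protein of membrane rafts, was apart in the other direction (11.6% of all tested genes lay so), with 43.2 and 39.2 FPKM in 211F 1 and 211F 2, compared with 58.8 for WT 1 and 57.8 for WT 2, and a difference of -0.49 ± 0.21 (SE; limma adjusted p = 0.9999). In WT 2 the lowest of the 9, Adam10, was at 69.7% of WT 1.

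**Figure D5:**
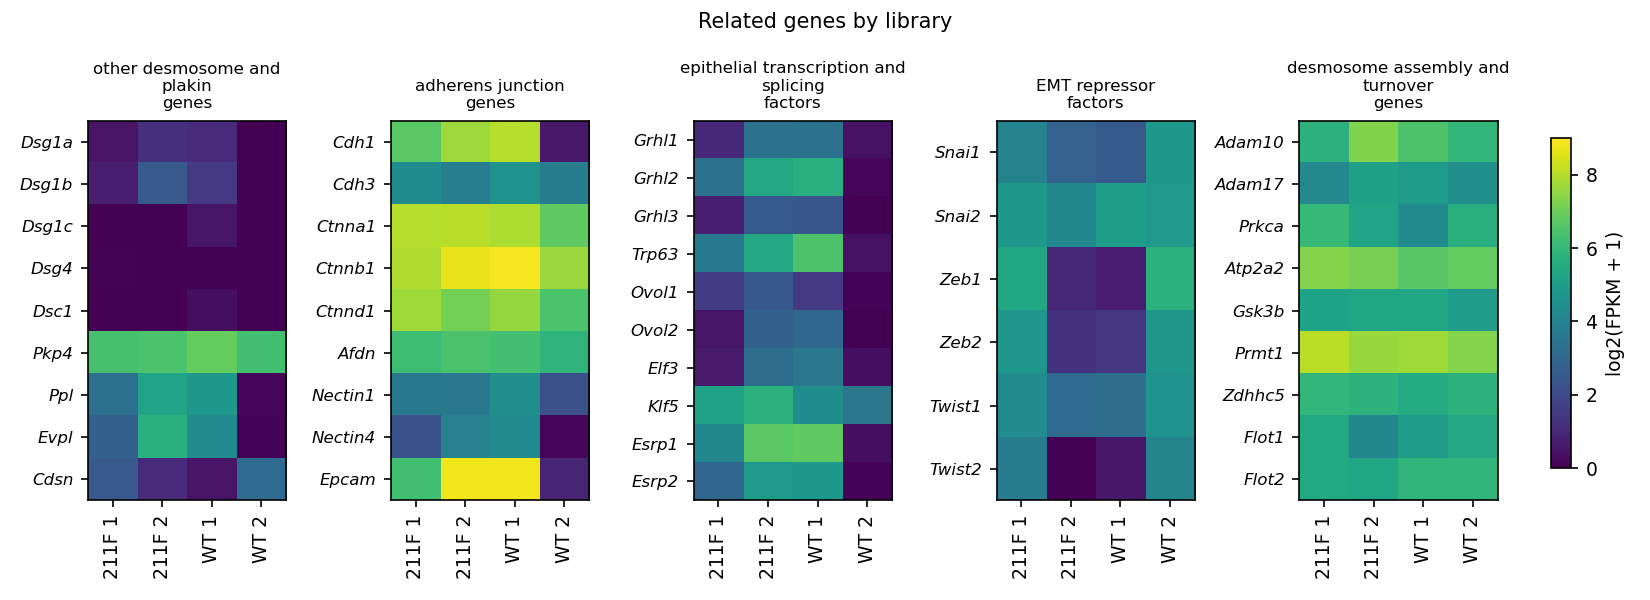
Levels on log2(FPKM + 1) (colour) of related genes, in rows, in the 211F 1, 211F 2, WT 1 and WT 2 libraries, in columns, by list. Most epithelial factors, Cdh1, Epcam, Ppl and Evpl are near 0 in WT 2, catenins and turnover genes are present in all 4 columns, and Zeb1, Zeb2 and Twist2 are high in 211F 1 and WT 2.

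The gene whose profile was most like that of the set was Serpinb5. Likeness was the distance over the 4 libraries between centred log2(FPKM + 1) profiles, among 11430 tested genes, and it is a description with no test. Serpinb5 (maspin, an epithelial serpin) was at a distance of 0.19 from the median desmosome profile, with 37.6 FPKM in 211F 1 and 87.9 in 211F 2, while WT 1 had 87.4 and WT 2 had 0.325. Next came Lsr, a protein of tricellular junctions (0.44), Inhbb (0.59), Serinc2 (0.66), Myh14 (0.67), Ano1 (0.68), Mpzl2 (0.68), Igfbp3 (0.71), Eps8l2 (0.81) and the laminin chain gene Lamb3 (0.82). Among the desmosome genes themselves Dsp and Dsg3 were nearest to their own median (0.47 and 0.48), and Pkp2 was farthest (4.91). For single genes the nearest were Ano1 for Dsp, Epha1 for Jup, Esrp1 for Pkp3, St14 (the protease matriptase) for Dsg2, Serpinb5 for Dsg3, Edn1 for Dsc2 and Krt18 for Perp. Pkp1 had no close neighbour (Xist, at 0.95). Pkp2 was nearest to Hmga1b, whose value is uncertain because it shares sequence with Hmga1.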

How the data were processed

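RNA was measured in 4 strand-specific Illumina libraries, per the labels' protocols. The authors deposited a single table of FPKM values for 50679 Ensembl genes by 4 libraries. The submitters' processing notes name TopHat2 2.0.13, DESeq2 and GRCm38 without saying what each did, and the sources used here do not give the program or annotation behind the FPKM values. Since FPKM is scaled to the library total, a few very abundant genes lower the others. All 4 value columns matched a sample title. The table holds no counts, so depth is known only as far as the steps of low values show it: among 1971 genes with a single transcript of at least 3000 bases, 397 to 433 low values a library were examined, and 92.2% to 93.8% of them fell within 0.1 of a whole fragment.

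Symbols were matched by identifier, and positions are from GENCODE M21. Genes averaging 1 FPKM or more were fitted as log2(FPKM + 1) with limma 3.58.1 in R 4.3.3 (two-sided, trend in the prior variance, Benjamini-Hochberg at 0.05). The fit was also run on simulated data, where a high share of calls was required only at a spread well below that of these libraries. The members and lists were chosen with earlier results of these data known. By the naming rule all 10 members were named, as could any gene of the related lists, with the 10 nearest genes and the nearest gene of each member, leaving out predicted symbols. Alternatives changed the pseudocount, the filter, the scaling, the prior, the block and the libraries used. A single leukocyte marker of the lists is not reported here.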

Additional observations from a re-analysis of the deposited data

How the results depend on the processing

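limma called 0 genes, desmosome genes included, in all 12 other settings and in the crossed block, which was chosen after seeing the data. Of 117 alternative values for single desmosome genes 9 turned direction, 8 of them without WT 2, and the cause was not tested. Leaving out each library in turn moved the difference from -1.14 to 5.65 for Dsp, -0.50 to 4.41 for Jup, -0.47 to 6.37 for Pkp1, -0.40 to 0.57 for Pkp2, -1.23 to 5.35 for Pkp3, -1.28 to 5.17 for Dsg2, -0.33 to 5.22 for Dsg3, 0.28 to 2.96 for Dsc2 and -0.68 to 6.47 for Perp. Positive differences numbered 9, with a range of 1 to 9 as libraries were left out singly, 1 being without WT 2. With 211F 2 against WT 1 alone they numbered 3. Groups that did not overlap numbered 0, with a range of 1 to 8 as libraries were left out singly, where fewer libraries make overlap rarer: of all tested genes 26.8% lay apart with all 4 libraries and 57.7% to 70.7% with 3. Without WT 1, 7 desmosome genes had an unadjusted p under 0.05 (smallest limma adjusted p = 0.587), and 836 of all genes did. A lone library is then assumed to vary like the other group. With the replicate block 142 genes had an unadjusted p under 0.05, compared with 241 without it, and no call changed. The labels do not say that replicate numbers pair libraries, and across genes the deviations of WT 1 and 211F 1 had an r of -0.465. With the crossed block 0 genes were called and 520 had an unadjusted p under 0.05, 1 desmosome gene among them. With no filter, 745 of 25743 genes did. By the step size, Dsc2 in WT 2 (about 2.25 fragments) and Dsc3 in every library (at most 2.00) rest on few fragments. The other tested desmosome genes in WT 2 equal about 32.6 fragments (Pkp1) or more.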

Other observations

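Xist, the RNA of the inactive X chromosome, was the tested gene nearest to Pkp1, and its level in WT 2 was singled out after the values were seen. It had 72.5 FPKM in 211F 1 and 37.2 in 211F 2, while WT 1 had 52.8 and WT 2 had 0.146, so WT 2 stood at 0.277% of WT 1, within the range of the desmosome genes there. The Y-linked genes Ddx3y, Eif2s3y, Kdm5d and Uty were at most 0.169 FPKM in all 4 libraries. No test was run on these values.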
